A study of Mus musculus with 3 samples.

Results

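The respiratory chain genes of the mouse embryo were taken by name from the deposited count table: every symbol beginning with mt-, Nduf, Uqcr, Cox4 to Cox8 or Atp5, and the 4 genes Sdha to Sdhd. This gave 106 of 31054 features, 13 of them encoded by the mitochondrial genome and 93 by the nucleus. The transcripts were counted by single-cell RNA sequencing (10x Genomics 3' v3) in 3 wild-type embryos of mixed C57BL/6 and 129 SvEv background, harvested at E8.0 at the start of somite formation. Each embryo was dissociated and sequenced on its own as 1 library, so the embryos are the replicates. All 3 embryos were untreated males with no mutant allele, and the extraembryonic tissue was cut away at collection for genotyping. The series holds no second condition, so the comparisons are between cell lineages of the same embryos.

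The respiratory chain is a row of protein complexes in the inner mitochondrial membrane. Complexes I and II pass electrons from NADH and succinate to ubiquinone, complex III passes them on to cytochrome c, complex IV hands them to oxygen, and the proton gradient that builds up drives ATP synthase, called complex V. The mitochondrial genome encodes core subunits of complexes I, III and IV and part of the membrane portion of complex V, while the nucleus encodes complex II whole, the remaining subunits and the assembly factors. Early embryos draw much of their ATP from glycolysis, and the reliance on respiration grows as organs form.

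Among the 13 mitochondrially encoded members were 7 genes of complex I, 1 of complex III, 3 of complex IV and 2 of complex V. The 93 nuclear members were 36 subunits and 8 assembly factors of complex I, 4 genes of complex II, 8 of complex III, 20 of complex IV and 17 of complex V, with Ndufa4 and Ndufa4l2 counted in complex IV. Of the 106 members, 101 had enough UMIs (unique molecular identifiers, each standing for 1 captured transcript) to be tested, namely all 13 mitochondrial and 88 nuclear ones. Levels are in CPM, a gene's UMIs in the summed cells of a lineage per 1000000 UMIs of that sum. A 3' UMI count carries no scaling for transcript length, so levels were compared between lineages for 1 gene at a time and not between genes.

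The files held 23533 barcodes, with a median of 26011, 14050 and 15674 UMIs per barcode in embryos 1, 2 and 3, and 21595 of them passed the limits on genes per cell and on mitochondrial UMIs (between 0.5% and 10%). Cells were placed in 15 lineages by UMIs of marker genes that include no member. Before gates were counted, cells passing the left-right organizer gate were taken out of the axial mesoderm gate. Cells passing either of these were taken out of the definitive endoderm and caudal epiblast gates. On that count 11892 cells passed a single gate, 1455 passed more than 1 and were left out, and 8248 passed none. Axial mesoderm thus holds only cells that failed the organizer gate. A lineage name means only that the cells passed that gate. Between 18 and 22 barcodes occurred in any given pair of libraries. Cells of the left-right organizer gate carried the organizer markers at 2253 CPM on average and also the axial mesoderm list at 1438, while axial cells held the organizer list at 123. The visceral endoderm gate took 2461 cells (281, 1215 and 965), although extraembryonic tissue had been removed, and its marker list reached 19558 CPM there. Erythroid cells came to 668 and 151 in embryos 2 and 3 and to 0 in embryo 1, so every erythroid value rests on 2 embryos.

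The visceral endoderm, the epithelium that feeds the embryo before the placenta works, gave the largest part of its transcripts to the mitochondrial genome. The 13 mitochondrial genes took 7.09%, 5.65% and 6.33% of its UMIs in embryos 1, 2 and 3 (6.36% ± 0.718, SD, n = 3). Definitive endoderm followed at 4.98%, 3.92% and 4.60% (4.50% ± 0.535), below the visceral endoderm in every embryo and with no overlap between the groups. Axial mesoderm (4.15% ± 1.01) and primordial germ cells (4.06% ± 0.553) came next. The left-right organizer, the ciliated pit that sets the body's left and right sides, stood at 4.16%, 3.30% and 3.38% (3.61% ± 0.474). Cardiac cells, which at this stage are beginning to express sarcomere genes, stood at 3.47%, 2.80% and 3.08% (3.12% ± 0.338), inside the run of mesodermal and ectodermal lineages that reached from 2.87% in caudal epiblast to 3.33% in endothelium. Erythroid cells were lowest with 2.38% and 2.54% (2.46% ± 0.111, n = 2), below caudal epiblast without overlap. Every other pair of neighbours in this order overlapped between embryos. Compared within each embryo, some of these pairs kept their order in all 3 and others did not. It was kept by germ cells over the organizer, the organizer over endothelium, and extraembryonic mesenchyme over paraxial mesoderm. Cardiac cells over surface ectoderm, allantois over neural ectoderm, and neural ectoderm over caudal epiblast kept it too. With 3 embryos a side an exact permutation test cannot pass the threshold, so these shares were given without a p-value.

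The nuclear members ordered the lineages differently. They took 3.06%, 3.24% and 3.15% of UMIs in visceral endoderm (3.15% ± 0.0891, n = 3), which was again highest, but erythroid cells came second with 2.94% and 2.96%. Primordial germ cells (2.58%), axial mesoderm (2.57%) and the organizer (2.54%, 2.56% and 2.61%, mean 2.57% ± 0.035) followed, and cardiac cells stood at 2.44%, 2.51% and 2.45% (2.46% ± 0.039). Definitive endoderm, second by its mitochondrial share, was 12th of the 15 lineages by its nuclear share (2.39%). Endothelium was lowest at 2.20% ± 0.032. Visceral endoderm did not overlap with erythroid cells, erythroid cells did not overlap with germ cells, and endothelium did not overlap with extraembryonic mesenchyme (2.32%). All other neighbours overlapped. Of these, the organizer over neural ectoderm, neural ectoderm over presomitic mesoderm, and caudal epiblast over paraxial mesoderm kept their order within all 3 embryos. For each UMI from a nuclear member there were 2.03 from the mitochondrial genome in visceral endoderm, 1.89 in definitive endoderm, 1.41 in the organizer, 1.27 in cardiac cells and 0.834 in erythroid cells.

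**Figure D1:**
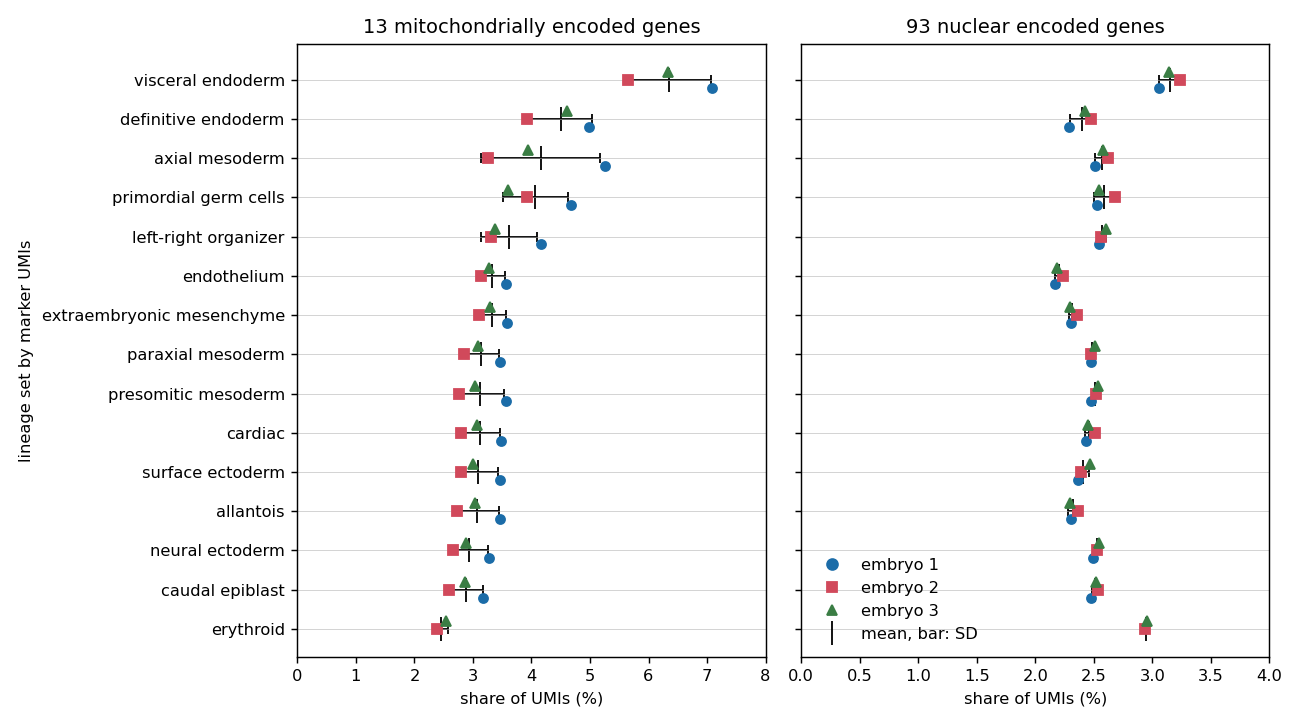
Share of all UMIs (%) that came from the 13 mitochondrial members (left) and the 93 nuclear members (right) in 15 lineages. Points are embryos, ticks the mean and bars the SD over embryos. Visceral endoderm is highest in both panels (6.36% and 3.15%), and erythroid cells are lowest on the left (2.46%) and second on the right (2.95%).

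The mitochondrial share also differed between embryos within a lineage. It was highest in embryo 1 in 14 of the 14 lineages measured there, by a ratio of 1.14 to 1.61 over embryo 2, and the order embryo 1, 3, 2 held in 13 of 14. The nuclear share was lowest in embryo 1 in 12 of 14. Embryo 1 was also the library with the most UMIs per barcode, and the part of depth in these orders was not tested. Set against the mean of the other lineages of the same embryo, the spread narrowed: visceral endoderm had 2.02 ± 0.0362 times their mitochondrial share and 1.26 ± 0.0261 times their nuclear share. The same ratios were 1.14 ± 0.0406 and 1.03 ± 0.00956 in the organizer, 0.961 ± 0.0162 and 0.981 in cardiac cells, and 0.799 ± 0.0018 and 1.17 in erythroid cells. Total UMIs per visceral endoderm cell were 1.06 times the mean of the other lineages, against 2.36 times for mitochondrial UMIs per cell. The upper limit of 10% acts on the members themselves and took away 211 barcodes, 190 of them in the visceral endoderm gate (6.98% of its cells).

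Within the mitochondrial transcripts the balance of genes shifted between lineages. mt-Co3, a core subunit of complex IV, made up 20.7% ± 0.412 of mitochondrial UMIs in visceral endoderm and 14.8% in caudal epiblast, the highest and lowest of the 15 lineages. mt-Atp6, the subunit of ATP synthase that carries protons past the rotor, ran the other way, from 14.6% in visceral endoderm to 19.1% in erythroid cells. mt-Co1, the catalytic subunit of complex IV, was at 14.4% in germ cells and 14.3% ± 0.577 in the organizer, against 12.0% in axial mesoderm and 11.2% in paraxial mesoderm. Erythroid cells had the lowest parts of mt-Cytb (9.77%), the electron carrier of complex III, and of mt-Nd4 (6.43%), a proton-pumping subunit of complex I. They also had the highest part of mt-Nd4l (1.49%). For mt-Cytb they overlapped with visceral endoderm (9.92%, 9.515% to 10.27%), and no erythroid part includes embryo 1. mt-Nd6, the 1 member transcribed from the other strand, ran from 0.0566% in definitive endoderm to 0.234% in allantois. mt-Nd4l shares bases with mt-Nd4, mt-Atp8 with mt-Atp6 and mt-Atp6 with mt-Co3, while mt-Nd5 overlaps mt-Nd6 on the opposite strand. How reads in those overlaps were counted was not tested, so the levels of these genes carry that limit.

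**Figure D2:**
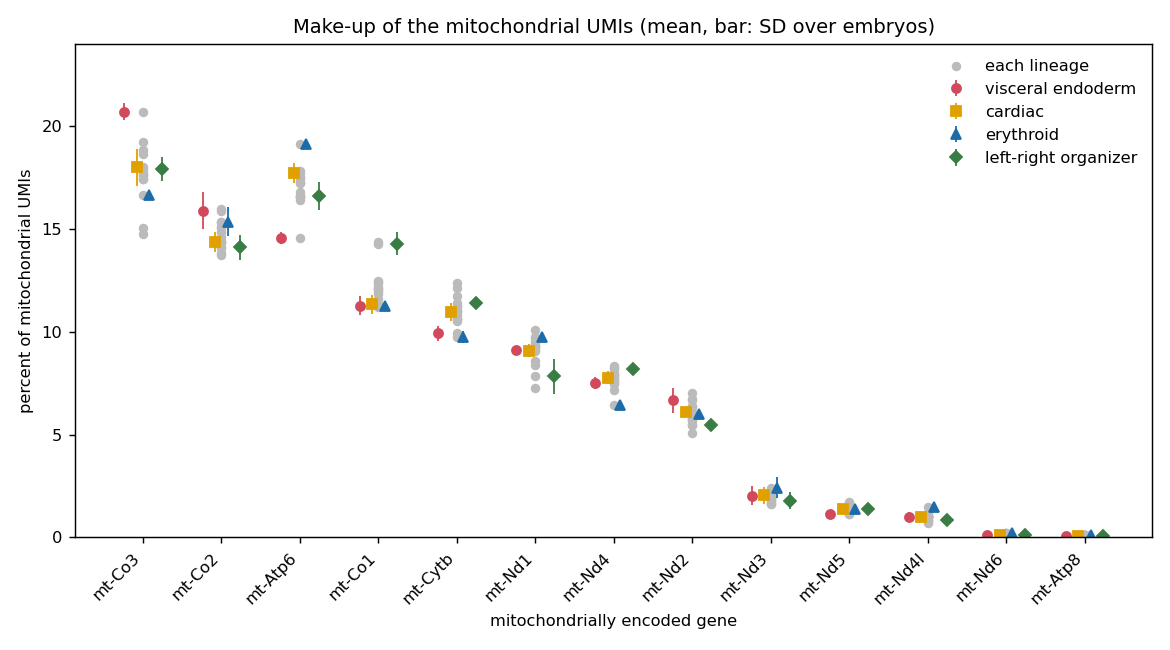
Percent of mitochondrial UMIs for each of the 13 mitochondrial genes. Grey points are the means of all 15 lineages, and coloured points with bars the mean and SD over embryos for visceral endoderm, cardiac, erythroid and organizer cells. mt-Co3 is highest in visceral endoderm (20.7%) and mt-Atp6 in erythroid cells (19.1%).

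For the test of single genes, the UMIs of each lineage and embryo were summed and the 44 sums fitted together with edgeR's quasi-likelihood test, with Benjamini-Hochberg adjustment over 14425 genes and a threshold of 0.05. Each of the 4 lineages was compared with the mean of the other lineages, and with a single lineage near to it. The first kind of comparison shares its background lineages across the 4 lineages.

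Visceral endoderm was higher in nearly the whole chain. Of 88 nuclear members tested, 74 rose and 3 fell, and all 13 mitochondrial members rose. Over all genes, 35.2% were called higher and 29.8% lower in this comparison. The median log2 difference was 1.09 for mitochondrial members and 0.52 for nuclear members, against -0.04 for all genes tested. Complex I subunits rose in 33 of 36 cases with none falling, complex III in 7 of 8, complex IV in 13 of 16 with 2 falling, complex V in 14 of 16, and the complex I assembly factors in 5 of 8 with 1 falling. Of complex II 2 of 4 genes rose. Sdhd (218, 179 and 151 CPM in embryos 1, 2 and 3), a membrane anchor, rose by 1.09 ± 0.10 (log2 ± SE), and the other anchor, Sdhc, by 0.54, while the catalytic subunits were at 0.14 for Sdha (edgeR, adjusted p = 0.20) and 0.07 for Sdhb (edgeR, adjusted p = 0.55).

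The nuclear member with the largest rise in visceral endoderm was Cox7a1 (chromosome 7, 30184144 to 30186078, plus strand, GRCm38), the heart and skeletal muscle form of subunit 7a of complex IV. It stood at 14.5, 20.5 and 21.3 CPM there, above the means of all other lineages, which ran from 1.09 in erythroid cells to 12.0 in germ cells, although 1 germ cell sum (15.2) lay above the lowest visceral endoderm sum. The log2 difference was 2.83 ± 0.14 (edgeR, adjusted p = 6.94e-22). Cox7a2, the form of the same subunit used in most tissues, rose by 0.62. The RefSeq promoters of both genes (GRCm38.p6, 250 bases before the start and 50 from it on, read 5' to 3' on the gene's strand) are shown because these forms of 1 subunit moved by such different amounts. They lie at chr7:30183921-30184220 on the plus strand and chr9:79759804-79760103 on the minus strand, and neither window held a match to the 3 motifs described further on.
Cox7a1: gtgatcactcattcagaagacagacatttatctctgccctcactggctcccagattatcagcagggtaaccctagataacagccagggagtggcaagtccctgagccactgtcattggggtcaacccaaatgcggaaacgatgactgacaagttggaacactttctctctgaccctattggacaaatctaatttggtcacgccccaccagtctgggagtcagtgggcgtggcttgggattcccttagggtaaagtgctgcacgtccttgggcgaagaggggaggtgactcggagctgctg
Cox7a2: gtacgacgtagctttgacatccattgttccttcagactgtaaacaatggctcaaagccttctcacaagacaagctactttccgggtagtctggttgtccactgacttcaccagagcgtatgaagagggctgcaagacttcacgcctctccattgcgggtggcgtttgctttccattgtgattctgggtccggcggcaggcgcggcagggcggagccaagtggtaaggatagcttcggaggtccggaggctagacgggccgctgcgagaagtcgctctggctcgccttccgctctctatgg

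Uqcrq (chromosome 11, 53427922 to 53430831, minus strand), a small subunit of complex III, was likewise higher in visceral endoderm than in any other lineage. It reached 702 to 773 CPM in the 3 embryos (732 ± 36.5), while erythroid cells had 389 and germ cells, the lowest, 247. The difference was 1.48 ± 0.06 on the log2 scale (edgeR, adjusted p = 3.20e-25). Cox5a, a nuclear subunit of complex IV (1199, 1384 and 1274), rose by 1.14 ± 0.06, and Ndufb10, a subunit of the membrane arm of complex I (294, 377 and 357), by 1.08. Groups did not overlap for Cox5a, whose next lineage mean was 849 in erythroid cells, whereas erythroid cells matched visceral endoderm in Ndufb10 (342 and 343). Among the mitochondrial genes mt-Co3 rose most (14900, 11440 and 13200, log2 1.37 ± 0.10, edgeR adjusted p = 5.57e-16), mt-Nd2 rose by 1.29 and mt-Co2 by 1.24. The smallest rise was that of mt-Atp8 (0.48).

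The 3 nuclear members that fell in visceral endoderm were other alternative forms and an assembly factor. Cox4i2 (1.87, 2.02 and 2.32 CPM), the form of complex IV subunit 4 known from lung and from low oxygen, fell by 2.07 ± 0.17 on the log2 scale (edgeR, adjusted p = 3.66e-14). Cox6b2 (6.91, 7.70 and 6.40), known as the testis form of subunit 6b, fell by 1.11 ± 0.18 and was lower there than the mean of any other lineage. Its sums there overlapped with those of endothelium (6.34 to 10.1), erythroid cells (6.04 to 12.8) and allantois (7.005 to 11.2). Ndufaf2, a chaperone of complex I assembly, fell by 0.46. The forms used in most tissues rose in each pair, by 0.66 for Cox4i1 and 0.55 for Cox6b1.

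Against definitive endoderm, the lineage next in mitochondrial share, the pattern held: 78 nuclear members were higher and 2 lower, and all 13 mitochondrial members were higher, beside 30.1% and 29.4% of all genes. The medians were 0.57 for nuclear and 0.83 for mitochondrial members and -0.01 for all genes. The 2 lower members were Cox4i2 (-1.44) and Cox6b2 (-1.13). Cox7a1 (5.09, 3.64 and 5.09 in definitive endoderm) differed by 2.28, and Uqcrq (278, 277 and 312) by 1.59 ± 0.09. mt-Nd6 was at 59.6, 69.6 and 90.4 in visceral and 23.1, 24.2 and 28.4 in definitive endoderm, a log2 difference of 1.81 ± 0.23 (edgeR, adjusted p = 8.24e-09). Genes of the dissociation and stress list were lower in visceral (141 CPM) than in definitive endoderm (580 ± 290), and their part in this comparison was not tested.

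**Figure D3:**
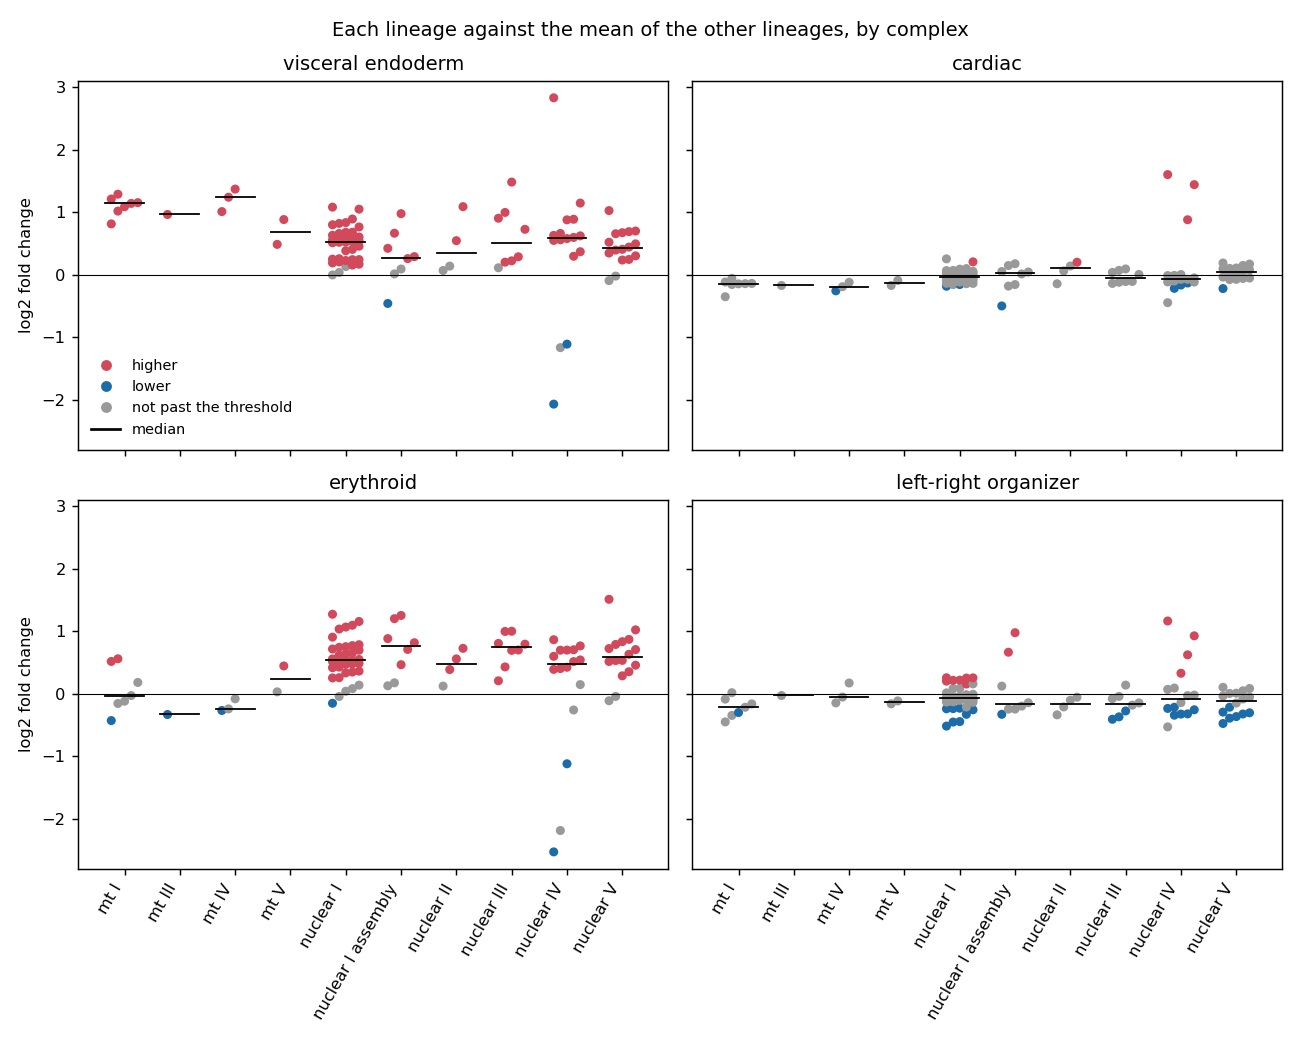
Log2 fold change of the 101 members tested, grouped by complex, for visceral endoderm, cardiac, erythroid and organizer cells against the mean of the other lineages. Red points were higher, blue lower and grey not past the adjusted p threshold, and black bars are medians. Red points fill nearly all groups in visceral endoderm and the nuclear groups in erythroid cells, and grey prevails in cardiac cells. The fit shown has no embryo term.

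Erythroid cells were higher in most nuclear members of the chain, while the mitochondrial members went both ways. Of the 88 nuclear members 73 rose and 3 fell, and the 13 mitochondrial members split into 3 up, 3 down and 7 not past the test. The background was 30.1% higher and 27.5% lower. Medians were 0.54 for nuclear members, -0.08 for mitochondrial members and -0.12 for all genes. Relative to the median of all genes these became 0.66 and 0.04. The lineages compared against include embryo 1, which gave no erythroid cells and had the highest mitochondrial shares. With the embryo as a block, the medians relative to all genes were 0.67 and 0.08. Scaled by library size alone, the nuclear calls were 44 higher and 12 lower and the mitochondrial calls 0 higher and 9 lower, beside 16.9% and 39.7% of all genes, so the mitochondrial rises depend on the scaling. All 8 complex III genes rose, as did 31 of 36 complex I subunits (1 fell), 14 of 16 complex V genes, 6 of 8 assembly factors, 11 of 16 complex IV genes (2 fell) and 3 of 4 complex II genes (Sdhd 0.72, Sdha 0.55, Sdhb 0.38). Globins took 1.44% and 0.712% of erythroid UMIs in embryos 2 and 3.

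The largest rise in erythroid cells was in Atp5g1 (chromosome 11, 96068852 to 96075670, minus strand), 1 of the 3 genes for the c subunit that forms the rotor ring of ATP synthase. It stood at 1463 and 1496 CPM, against 972 ± 72.0 in visceral endoderm and 529 in axial mesoderm, the lowest (log2 1.51 ± 0.09, edgeR adjusted p = 5.07e-18). Atp5g2, which encodes the same mature protein behind another import sequence, was at 656 and 619, the lowest mean of the 15 lineages (log2 -0.12, edgeR adjusted p = 0.17), and Atp5g3 rose by 0.63. Of the UMIs of these 3 genes, Atp5g1 thus made up 57.9% in erythroid cells, 43.1% in visceral endoderm and 26.1% to 39.3% in the other lineages, while Atp5g2 ran from 25.0% in erythroid cells to 56.5% in axial mesoderm. These parts compare lineages and not the amounts of the 3 transcripts, whose 3' ends may be captured unequally. Their RefSeq promoters are given because Atp5g1 and Atp5g3 rose and Atp5g2, for the same mature protein, did not pass the test. They lie on the minus strand of GRCm38.p6 at chr11:96075582-96075881, chr15:102670998-102671297 and chr2:73911277-73911576. The windows of Atp5g1 and Atp5g3 reach past the annotated 5' ends of their genes. That of Atp5g2 lies inside its gene, whose annotated 5' end is at 102672352. Capitals mark a match to a motif described further on. That is the NRF1 motif in Atp5g2 and, in Atp5g3, TGACCTT, the reverse complement of the estrogen-related receptor motif AAGGTCA.
Atp5g1: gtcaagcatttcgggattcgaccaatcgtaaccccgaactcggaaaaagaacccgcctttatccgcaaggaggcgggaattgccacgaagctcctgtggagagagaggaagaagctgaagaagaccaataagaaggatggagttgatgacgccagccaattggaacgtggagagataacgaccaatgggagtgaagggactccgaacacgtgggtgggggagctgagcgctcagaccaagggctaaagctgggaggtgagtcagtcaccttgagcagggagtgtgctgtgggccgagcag
Atp5g2: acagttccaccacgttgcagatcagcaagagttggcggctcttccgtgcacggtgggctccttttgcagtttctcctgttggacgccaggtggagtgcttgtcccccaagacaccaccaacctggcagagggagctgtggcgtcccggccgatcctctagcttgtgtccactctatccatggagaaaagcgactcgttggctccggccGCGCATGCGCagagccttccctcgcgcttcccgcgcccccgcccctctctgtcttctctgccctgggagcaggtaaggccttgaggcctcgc
Atp5g3: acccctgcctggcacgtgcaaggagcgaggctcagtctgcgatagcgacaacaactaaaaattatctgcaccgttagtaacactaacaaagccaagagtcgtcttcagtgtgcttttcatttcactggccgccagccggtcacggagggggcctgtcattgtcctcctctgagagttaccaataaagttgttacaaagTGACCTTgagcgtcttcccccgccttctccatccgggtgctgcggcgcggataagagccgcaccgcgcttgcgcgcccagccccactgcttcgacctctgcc

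Complex I genes that rose in erythroid cells included the accessory subunits Ndufb10 and Ndufa5. Ndufb10 (355 and 330) rose by 1.27 ± 0.12 and Ndufa5 (236 and 265) by 1.15 ± 0.07. The assembly factor Ndufaf7 (39.1 and 38.9), a methyltransferase acting on a core subunit, rose by 1.25 ± 0.14, and Ndufaf4 (215 and 232) by 1.20 ± 0.08. Members that fell were Cox4i2 (1.42 and 1.13, log2 -2.53 ± 0.29), Cox7a1 (1.42 and 0.755, log2 -1.12 ± 0.37) and Ndufa7 (-0.16). In the mitochondrial set mt-Nd4 (1517 and 1648) fell by 0.43 ± 0.12, mt-Cytb by 0.33 ± 0.09 and mt-Co1 by 0.27 ± 0.11. The lineage means behind these differences hold embryo 1, which has no erythroid sum. mt-Nd6 rose by 0.56, mt-Nd4l by 0.51 and mt-Atp8 by 0.44, and all 3 calls were lost with library size alone. With embryo 2 or 3 left out a single erythroid sum remains, taken to vary like the sums of the other lineages, and on that footing these 3 calls were lost without embryo 2 and those of mt-Nd4, mt-Cytb and mt-Co1 without embryo 3.

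Set beside endothelium, the other lineage of the early blood islands, erythroid cells had 82 nuclear members higher and 2 lower, and 1 mitochondrial member in each direction, beside 24.5% and 25.9% of all genes. The nuclear median was 0.77, the mitochondrial one -0.00 and that of all genes -0.05. These medians depend on the scaling. With library size alone that of all genes was -0.41, and the nuclear and mitochondrial ones lay 0.83 and 0.05 above it. With the embryo as a block they lay 0.80 and 0.11 above it. As plain shares of UMIs in embryos 2 and 3, mitochondrial members took 2.38% and 2.54% in erythroid cells. In endothelium they took 3.13% and 3.28%. Ndufaf7 (1.72), Atp5g1 (1.41) and Ndufaf4 (1.31) led. mt-Cytb was lower by 0.29, and Cox4i2 was at 1.42 and 1.13 in erythroid cells against 12.6 ± 1.59 in endothelium (log2 -2.84).

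In the fit without an embryo term, cardiac cells changed few members. Of the 88 nuclear members 5 were higher and 7 lower, and 1 of 13 mitochondrial members was lower, beside 11.5% and 7.51% of all genes. In this fit the nuclear members lay near or under the background in both directions, and their median of -0.01 was close to the -0.03 of all genes. With the embryo as a block in the fit, 8 nuclear members were higher and 17 lower, and 9 mitochondrial members lower, beside 13.9% and 10.0% of all genes in that fit, so the lower calls exceeded the background there. With an embryo left out, 3 to 6 members were called (6 without embryo 1, 3 without embryo 2 or 3). Cox4i2 (chromosome 2, 152754173 to 152765037, plus strand) gave the largest difference in cardiac cells, at 30.8, 25.1 and 20.1 CPM against 8.23, 8.52 and 6.94 in paraxial mesoderm. It was higher by 1.60 ± 0.14 than the mean of the other lineages (edgeR, adjusted p = 4.26e-12) and by 1.70 ± 0.19 than paraxial mesoderm. The allantois (40.3) and extraembryonic mesenchyme (31.7) stood higher still. Cardiac cells also carried the marker list of the extraembryonic mesenchyme at 419 CPM (294 to 628), against 88.9 in paraxial mesoderm and 2313 in the mesenchyme itself. The part of this overlap in the Cox4i2 level was not tested.

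The muscle form Cox7a1 was at 3.42, 8.26 and 6.21 in cardiac cells and between 2.65 and 3.89 in paraxial mesoderm, so embryo 1 overlapped. It was higher by 0.88 ± 0.26 against the other lineages (edgeR, adjusted p = 0.0110) and by 0.96 ± 0.31 against paraxial mesoderm (edgeR, adjusted p = 0.0312), from 54 cardiac UMIs in all. Without embryo 2 these differences were 0.64 and 0.50 (edgeR, adjusted p = 0.347 and 0.638), the calls were also lost without embryo 3, and against the sum of all other cells Cox7a1 was at 0.42 (edgeR, adjusted p = 0.468). Cox6a2, the muscle form of subunit 6a, had 5 UMIs in the summed lineages, all in cardiac cells of embryos 1 and 2 (0.311 and 1.10 CPM, 0 in embryo 3), and none among the 258511910 UMIs of the other lineages. Cox8b, the muscle form of subunit 8, had none in cardiac cells, which allows up to 0.336 CPM by counting error alone. Smaller differences in cardiac cells were Ndufv3 and Sdhc (both 0.20 higher), Ndufaf6 (0.50 ± 0.14 lower) and mt-Co1 (0.26 ± 0.09 lower, a call lost with any embryo left out). Against paraxial mesoderm the calls were Cox4i2, Cox7a1 and, lower by 0.24, Ndufs4, a subunit at the NADH end of complex I, beside 7.18% and 6.88% of all genes called.

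The organizer showed a mixed picture with more members lower than higher, a balance that depended on the method. There 13 nuclear members were higher and 25 lower, and 1 mitochondrial member lower, beside 21.6% and 14.0% of all genes. The medians were -0.10 for nuclear members, -0.15 for mitochondrial members and 0.06 for all genes. Complex V had 7 of 16 members lower and none higher, and complex III 3 of 8 lower and none higher, whereas complex I subunits went both ways (7 higher, 8 lower of 36) and so did complex IV (4 higher, 6 lower of 16). Scaled by library size alone, the median of all genes moved to 0.21 and the nuclear calls became 25 higher and 9 lower, beside 26.1% and 6.47% of all genes. Taken relative to the median of all genes the nuclear median was -0.16 and -0.15 under the respective scalings, and the mitochondrial one -0.21 and -0.20. DESeq2 also gave more members higher than lower. As plain shares of UMIs the members stood above the mean of the other lineages in every embryo. The ratios were 1.10 to 1.17 for the mitochondrial and 1.02 to 1.04 for the nuclear share. Organizer and axial cells also carried the highest levels of nuclear-retained RNAs (6012 ± 1490 and 5267 CPM against 2391 to 3866 elsewhere), and the part of this in the calls was not tested.

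Among the higher members of the organizer were 2 assembly factors of complex I. Ndufaf3 (chromosome 9, 108565537 to 108567434, minus strand) was at 58.1, 79.9 and 57.9 CPM, above the means of all other lineages (17.4 in endothelium to 41.7 in germ cells), with axial mesoderm at 25.9, 27.5 and 30.7. It was higher by 0.97 ± 0.13 (edgeR, adjusted p = 5.81e-08), and by 1.17 ± 0.26 against axial mesoderm (edgeR, adjusted p = 0.00173). Its 3 values lay above every sum of the other lineages, and the call against axial mesoderm was lost without embryo 2 (log2 1.03, edgeR adjusted p = 0.0611). It overlaps Impdh2 on the opposite strand. Ndufaf7 was at 42.0, 33.1 and 36.0 against 4.70, 15.0 and 13.9 in axial mesoderm, higher by 0.66 ± 0.17 over the other lineages and by 1.75 ± 0.40 over axial mesoderm, where it rests on 13 UMIs. Without embryo 1 these differences were 0.53 and 1.27 (edgeR, adjusted p = 0.099 and 0.192). Ndufaf4, a partner of Ndufaf3 in the same assembly step, was lower by 0.33, so the factors did not move as a group.

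Among subunits of the organizer, Cox7a2l, a scaffold factor that joins complexes III and IV into supercomplexes, was higher by 0.32 ± 0.06 (edgeR, adjusted p = 8.24e-05). Cox7a1 (6.88, 8.27 and 5.99) and Cox6b2 (28.3, 17.9 and 30.6) were higher by 0.92 and 0.62, close to the threshold (edgeR, adjusted p = 0.0366 and 0.0472), and that of Cox7a1 was not called with any embryo left out. The lower members included Ndufs1 (50.4, 35.8 and 42.6), the subunit of complex I that takes over electrons with its iron-sulfur clusters, by 0.52 ± 0.14, and Atp5g1 (467, 605 and 647) by 0.48 ± 0.10. Ndufa5 was lower by 0.46, Ndufv3 by 0.45 and Uqcr10 by 0.41. Of the mitochondrial genes mt-Nd1 was lower by 0.30 ± 0.10 and mt-Co1 stood at 0.17 (edgeR, adjusted p = 0.12). Several of these levels were shared by axial mesoderm. Its Cox7a2l mean was 317 CPM against 318 in the organizer, with germ cells at 329, and its Cox6b2 mean 27.3 against 25.6. Atp5g1 (529) and Ndufa5 (111) were lower still in axial mesoderm. Ndufs1 (58.7), Ndufv3 (128) and Uqcr10 (315) were higher there than in the organizer (43.0, 115 and 284), and Cox7a1 was lower (4.21).

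Between the organizer and axial mesoderm, both of them midline tissue, 5 nuclear members were higher and 4 lower (4 and 4 without Ndufa4l2, which had no axial UMI), and mt-Cytb was lower by 0.34 ± 0.10, beside 6.15% and 2.78% of all genes. Besides Ndufaf3 and Ndufaf7, Ndufab1, the mitochondrial acyl carrier protein that is also a complex I subunit, was at 427, 495 and 432 against 266, 322 and 298 without overlap (log2 0.59 ± 0.10, edgeR adjusted p = 1.68e-05), and Ndufs4 was higher by 0.50. The lower members were Ndufa11 (-0.36), Ndufb7 (-0.33), Atp5e (-0.27) and Atp5g2 (-0.26). The axial sums hold 72 cells, by rule only cells that failed the organizer gate. With the embryo as a block, 6 nuclear members were higher and 6 lower, and 6 mitochondrial members lower, beside 6.82% and 3.50% of all genes in that fit. With an embryo left out, 3 to 6 members were called (3 without embryo 1, 6 without embryo 2 or 3), and the call of mt-Cytb was lost without embryo 1 or 3.

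Ndufa4l2, a homologue of the complex IV subunit Ndufa4 known to respond to low oxygen, split the midline tissues. It had 8.41, 8.27 and 6.66 CPM in the organizer (27 UMIs) and 0 in axial mesoderm of all 3 embryos. With 3 counts over the axial sums as the floor (2.53 CPM), the pooled organizer level (7.64 CPM) was 3.02 times that floor. This ratio leaves out the counting error of the 27 organizer UMIs and the spread between embryos. Cardiac cells had 9.96, 6.33 and 9.08, the allantois 15.5, visceral endoderm 1.39 and erythroid cells 0.520. Because of the 0 in axial mesoderm, its fitted differences against the mean of the other lineages are unstable and are not given, and the counts above hold without it 4 higher and 7 lower nuclear members in cardiac cells and 12 and 25 in the organizer. Against endothelium (6.84, 5.27 and 5.80) erythroid cells (0.662 and 0.377) were lower by 2.92 ± 0.47 on the log2 scale. It overlaps Shmt2 on the opposite strand.

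**Figure D4:**
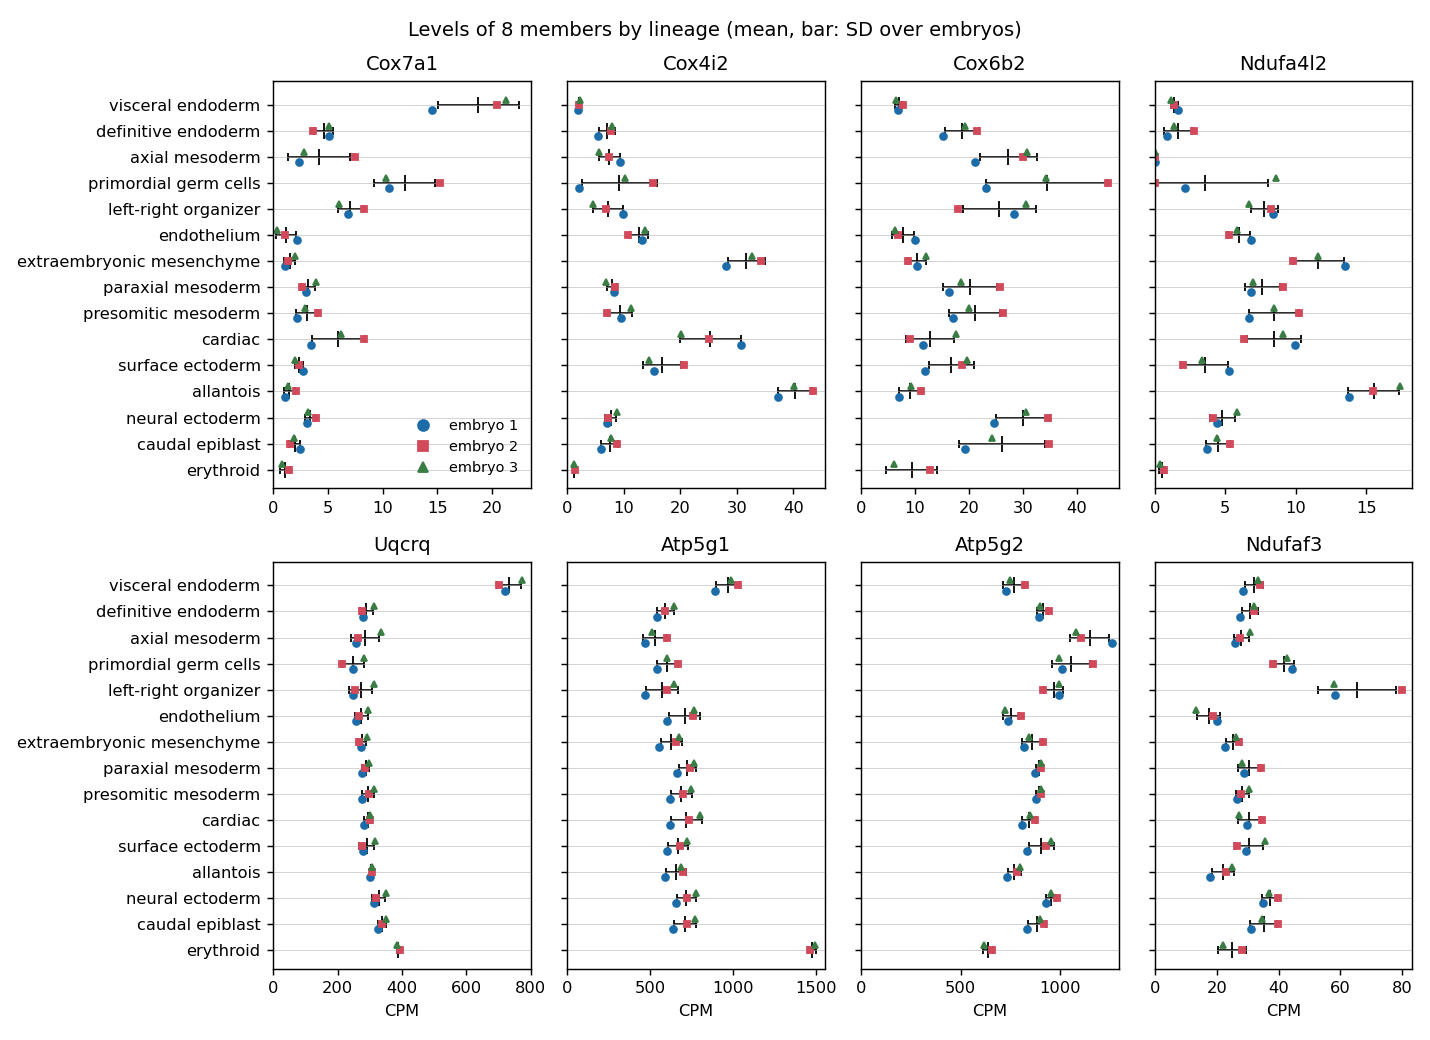
CPM by lineage for 8 members (Cox7a1, Cox4i2, Cox6b2, Ndufa4l2, Uqcrq, Atp5g1, Atp5g2 and Ndufaf3). Points are embryos, ticks means and bars SDs. Cox7a1 and Uqcrq are highest in visceral endoderm, Cox4i2 and Ndufa4l2 in the allantois, Atp5g1 in erythroid cells and Ndufaf3 in the organizer.

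Over all members with a UMI, 37 of the nuclear ones had their highest mean in visceral endoderm, 24 in erythroid cells and 11 in germ cells, and 32 their lowest in endothelium. Of the mitochondrial members 12 were highest in visceral endoderm and 9 lowest in erythroid cells. The erythroid means hold no embryo 1, which had the highest mitochondrial shares, while the other means hold it. The count of 9 is not given without that embryo, so the part of its absence in this count was not tested. mt-Atp8 was highest in germ cells (41.2 CPM). The same counts are not given for all genes, so these describe the members alone. Germ cells and axial mesoderm, the lineages with the fewest cells, stood at both ends of the nuclear counts. Germ cells were highest for 11 and lowest for 15, and axial mesoderm highest for 8 and lowest for 9. The alternative forms of complex IV ranged most widely: the ratio of the highest to the lowest lineage mean was 31.6 for Cox4i2 and 17.3 for Cox7a1, against 4.91 for Cox6b2 and 2.69 for Cox5a. The 5 members not tested were Cox6a2, Cox8b, Cox7b2 (51 UMIs), Cox8c (3 UMIs) and a second identifier of Atp5o (2 UMIs).

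The 300-base RefSeq promoters of 74 of 92 nuclear symbols were searched on both strands for 3 motifs of factors known to regulate respiratory genes. A gene was counted once if any of its promoters held a match. The NRF1 motif, GCGCA followed at once by its reverse complement TGCGC, occurred in 7 of these genes (9.46%). It occurred in 1.07% of all 27025 genes with promoters of the same length. Those genes were not matched to the members by base composition or by expression. The ETS motif CCGGAAG, which GABPA can bind, occurred in 24.3% against 9.93%, and the estrogen-related receptor motif AAGGTCA in 10.8% against 5.38%. A match is a run of letters and no evidence of binding, and promoters of Cox4i1, Cox4i2, Ndufa4l2 and Uqcrq were not used here.

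Lists of related genes, chosen with earlier results of these data known, were counted in the same fit and are read against the shares of all genes called. In visceral endoderm those were 35.2% higher and 29.8% lower. There 25 of 35 assembly genes outside the members were higher and 2 lower, as were 10 and 1 of 14 citrate cycle genes and 11 and 1 of 14 genes for electron carriers and nucleotide exchange. Glycolysis went against them, with 4 of 18 higher and 11 lower (median -0.50), although the glucose transporter Slc2a3 stood at 2577, 2043 and 2212 CPM, a level that definitive endoderm shared (2831, 2007 and 2300). Of 12 regulators of mitochondrial biogenesis 5 were higher and 4 lower, near the background, among the higher ones the coactivator Ppargc1b (15.5, 15.9 and 16.5, with axial and germ cells at 0 in all embryos) and its partner receptor Esrra (34.0, 32.0 and 33.4, log2 2.35 ± 0.11). Of 17 genes for mitochondrial DNA replication, transcription and RNA handling 7 were higher, near the background, and 3 lower, and Lrpprc, which stabilises mitochondrial messengers, rose by 1.01.

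In erythroid cells, where 30.1% of all genes were higher and 27.5% lower, 27 of 35 assembly genes and 13 of 14 citrate cycle genes were higher, and so were 12 of 18 glycolysis genes (median 0.65, 3 lower), with hexokinase Hk1 at 67.4 and 58.1 CPM. Cytochrome c itself, Cycs, rose by 1.33 (588 and 610), the citrate cycle subunit Idh3a by 1.66 (172 and 176), and Myc, a regulator of growth and mitochondrial biogenesis, by 3.31 ± 0.13 (75.6 and 77.7). Of the genes for mitochondrial DNA and RNA 12 of 17 were higher and 2 lower. These erythroid list counts were not repeated with library size alone, where 16.9% of all genes were higher and 39.7% lower. Summed in CPM, the glycolysis list stood at 12410 in erythroid cells. It was higher in neural ectoderm (14290), surface ectoderm (14140), caudal epiblast (13670), cardiac cells (12930) and extraembryonic mesenchyme (12550), and lower in the other lineages. Cardiac cells, beside 11.5% and 7.51% of all genes, had 10 of 18 glycolysis genes higher and 3 lower, 2 of 14 citrate cycle genes higher and none lower, which is near the background, and the nuclear receptor gene Esrrg at 3.73, 2.75 and 2.87. In the organizer, beside 21.6% of all genes higher and 14.0% lower, 8 of 14 citrate cycle genes, 8 of 14 carrier and exchange genes, 8 of 17 genes for mitochondrial DNA and RNA and 9 of 18 glycolysis genes were lower, with 0, 2, 1 and 1 higher. Etfa, the electron carrier that feeds fatty acid oxidation into the chain, was an exception there, at 125, 108 and 103 and higher by 0.92 ± 0.08. The organizer list counts were not repeated with library size alone, where 26.1% of all genes were higher and 6.47% lower. Summed in CPM, the lists in the same order stood at 1293, 3156, 790 and 10310 in the organizer and 1201, 2864, 623 and 10880 in axial mesoderm. For mitochondrial DNA and RNA only caudal epiblast (1542), presomitic mesoderm (1053) and allantois (836) stood above the organizer.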

How the data were processed

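The authors aligned the reads to mm10 with an added EGFP sequence in Cell Ranger 3.1.0 and deposited raw UMI counts per gene and cell, which were used as deposited. Barcodes with 1500 to 8500 genes (7500 in embryo 2) and mitochondrial UMIs of 0.5% to 10% were kept, and cells passing more than 1 marker gate were left out as possible multiplets. Exempt were organizer cells that also met the axial, definitive endoderm or caudal epiblast gate. Axial cells that also met the definitive endoderm or caudal epiblast gate were exempt too. Members and lists were chosen with earlier results of these data known, and gate limits on marker UMIs alone, with the files in view. For each lineage of an embryo with at least 10 cells the UMIs were added up and tested with edgeR 4.0.16 in R 4.3.3 (TMM scaling, low counts filtered, 1 coefficient a lineage), tested first on simulated data. DESeq2 1.42.0 was an alternative. The embryo pairs the sums, since each embryo gives all its lineages: deviations of sums from 1 embryo correlated with a median r of 0.399 over 301 pairs, against -0.181 between embryos. Named were the mitochondrial genes, Sdha to Sdhd, the alternative forms, and, for each comparison, up to 5 members and 4 list genes a direction with the largest differences and 1 sign in every embryo. Other members named as examples were chosen after their values were seen. Positions are from GENCODE M21.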

Additional observations from a re-analysis of the deposited data

Results flagged for a closer look

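Barcodes under the floor of 0.5% mitochondrial UMIs, used in no comparison, still carried the nuclear members of the chain. In these 573 barcodes (334, 160 and 79 in embryos 1, 2 and 3) the nuclear members took 2.92%, 3.20% and 3.07% of UMIs, 3.06% on average, against 2.46%, 2.63% and 2.57% in the cells that were kept, while mitochondrial members took 0.104%, 0.113% and 0.132%. The nuclear share was higher under the floor in 3 of 3 embryos. Their median was 10260, 5496 and 6872 UMIs. Within the visceral endoderm gate the nuclear share under the floor was 3.47%, 3.86% and 3.71% (17, 33 and 22 barcodes) against 3.06%, 3.24% and 3.15% above it. Of non-mitochondrial UMIs alone it was 3.475%, 3.863% and 3.716% there against 3.29%, 3.43% and 3.36% in the cells kept, so the gap was smaller on that scale but higher under the floor in 3 of 3 embryos. Visceral endoderm barcodes over the 10% limit (41, 67 and 82) had mitochondrial shares of 11.9%, 11.9% and 11.7% and nuclear shares of 2.83%, 3.34% and 2.99%, which overlapped with those of the cells kept. Barcodes passing no gate had nuclear shares of 2.97%, 3.00% and 3.01% under the floor and 2.46%, 2.51% and 2.54% above it. The part of broken cells or bare nuclei in these values was not tested.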

How the results depend on the processing

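The counts of called members in visceral endoderm (90, and 93 against definitive endoderm) and in erythroid cells (82, and 86 against endothelium) stayed within 1.5 times under every alternative run, from 83 to 91, 88 to 89, 68 to 80 and 68 to 81 with each embryo left out. A single erythroid sum is left without embryo 2 or 3, assumed to vary like the other lineages, and none is removed without embryo 1. Scaling by library size alone shifted the median of all genes to -0.22 in visceral endoderm and to -0.50 in erythroid cells. The nuclear calls became 56 higher and 8 lower in visceral endoderm, and 44 higher and 12 lower in erythroid cells. The erythroid counts stood beside 16.9% of all genes higher and 39.7% lower in that fit. Relative to the median of all genes, the nuclear median was 0.56 in visceral endoderm and 0.67 in erythroid cells. Where no share of all genes is given for an alternative run, here or above, its counts show only how the calls moved. Cardiac cells gave 13 calls (5 higher, 8 lower), and the balance turned to higher without a filter on low counts (10, of which 7 higher), without the 10% of cells with the most UMIs (13, of which 7 higher), against the sum of all other cells (1) and with an embryo left out (3 to 6, 6 without embryo 1 and 3 without embryo 2 or 3). With the embryo as a replicate block, cardiac cells gave 34 calls (8 higher), 6 against paraxial mesoderm (3 without the block) and the organizer 18 against axial mesoderm (10 without it). No called named member lost its call under the block. Against paraxial mesoderm the marker limit 2 times as high gave 5 calls, and leaving out embryos 1 to 2 calls (1 without embryo 2). The organizer's 39 calls became 35 with library size alone (26 higher, 9 lower) and 35 with DESeq2 (21 higher, 14 lower), both turning the balance, and 18 against the sum of all other cells. Against axial mesoderm they became 5 with the stricter gate and 3 to 6 with an embryo left out (3 without embryo 1, 6 without embryo 2 or 3). The erythroid nuclear share of 2.95% became 2.98% with the stricter gate, 2.983% without marker and globin genes in the total, and 2.962% as a median over cells. The stricter gate also moved the nuclear shares of axial (2.569% to 2.637%), presomitic (2.51% to 2.572%) and paraxial mesoderm (2.484% to 2.51%), allantois (2.32% to 2.278%) and extraembryonic mesenchyme (2.316% to 2.25%, and 2.277% without the cells with the most UMIs). Of the 92 named genes' differences, 18, 19 and 24 lost their call without embryos 1, 2 and 3, 11 with the stricter gate, 8 with library size alone, 6 without the filter on low counts and 5 with DESeq2, and of 52 that could be set against the sum of all other cells 13 did. None turned its direction. That outcome, and the calls kept under the block, carry little weight. Many differences were named for their size and for having 1 sign in every embryo. The causes were not tested. Counting error limits members under about 10 UMIs a sum, and 72 axial and 71 germ cells limit those lineages most.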

Other observations

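Primordial germ cells, 71 in all, held the highest mean of 11 nuclear members and the lowest of 15, with no such count given for all genes. The members given here were chosen after their values were seen. Among the highest were Ndufa7 (560 CPM), Cox7a2 (975) and Ndufaf1 (32.7). Cox7a1 stood at 12.0 ± 2.78 CPM there (13 UMIs), second to visceral endoderm, Cox6b2 at 34.4 ± 11.2 and Ndufaf3 at 41.7 ± 3.27, second to the organizer. The lowest means of the 15 lineages were those of germ cells for Uqcrq (247 ± 34.0), Cox5a (477 ± 50.1), Ndufb10 (138 ± 32.3) and Ndufaf7 (9.80 ± 9.45). Of the UMIs of the c subunit genes, Atp5g2 made up 53.7% ± 2.16 and Atp5g1 30.8% ± 1.04. No test was run on this lineage.

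The allantois and the extraembryonic mesenchyme, both extraembryonic mesoderm, held the highest levels of Cox4i2 and Ndufa4l2. Cox4i2 was at 40.3 ± 3.06 CPM in the allantois and 31.7 ± 3.20 in the mesenchyme, and Ndufa4l2 at 15.5 ± 1.81 and 11.6 ± 1.83. Cox7a1, by contrast, was at 1.48 ± 0.521 and 1.49 ± 0.478, near the 1.19 ± 0.906 of endothelium. The allantois cells carried the marker list of the extraembryonic mesenchyme at 808 CPM (796 to 832) beside their own list at 645, while the mesenchyme cells carried the allantois list at 84.1 and their own at 2313. The part of such overlap in these levels was not tested, and they are a description with no test.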
